A study of Mus musculus with 14 samples.

Results

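The genes described are the nuclear-encoded subunits of the 5 oxidative phosphorylation complexes, with the few accessory factors that share their symbols. They were taken from the count table by name alone: Nduf symbols of the A, B, C, S, and V series, *Sdha* to *Sdhd*, and all symbols that begin with Uqcr, with Cox4 to Cox8, or with Atp5, except *Cox7a1* and *Cox8b*, which are shown beside the list. The rule found 82 of the 24062 genes in the table. Of these, 35 were placed in complex I, 4 in complex II, 8 in complex III, 18 in complex IV, and 17 in complex V. *Ndufa4* and *Ndufa4l2*, named for complex I, were counted with complex IV. The libraries were bulk RNA-seq of 3 control dorsal root ganglia (DRGs) with their nerves, 5 slow-growing plexiform neurofibromas (PNs), and 6 fast-growing PNs. Controls had the genotype Nf1fl/fl and no Cre, and PNs were DhhCre;Nf1fl/fl, so that all 14 libraries carry the floxed *Nf1* alleles. Dhh-Cre acts in the Schwann cell lineage, and the other cells of a PN keep *Nf1*. Each mouse was of a mixed C57BL/6, I-129, and FVBN background and received no drug. The study's methods give the age at collection as 9 months, whereas one of its legends gives 7 months. By MRI at 7 and 9 months, a fast-growing PN had gained over 35 mm3 and a slow-growing PN had changed by under 5 mm3.

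Oxidative phosphorylation passes electrons from NADH (complex I) and succinate (complex II) through ubiquinone to complex III, through cytochrome c to complex IV, and on to oxygen. Complexes I, III, and IV pump protons across the inner mitochondrial membrane, and complex V, the ATP synthase, uses their return to make ATP. Most subunits are encoded in the nucleus and a small core in mitochondrial DNA. Brown fat, skeletal muscle, and neurons are rich in these complexes, and brown fat and striated muscle use their own isoforms of some complex IV subunits. Brown fat is also known for little ATP synthase relative to its respiratory chain.

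The libraries held between 9596773 and 17594164 counts on genes, so that 3 counts correspond to 0.167 to 0.313 CPM (counts scaled to library size). No mitochondrially encoded subunit was among the genes of the table. Levels are CPM scaled by TMM factors, and a gene was called changed at an adjusted p under 0.05 in edgeR's quasi-likelihood test, adjusted over all genes tested. *Nf1* transcripts stood at 129 to 227 CPM in controls, 225 to 294 CPM in slow-growing PNs, and 225 to 276 CPM in fast-growing PNs, so the labels cannot be checked by a fall of the targeted gene in these mixed tissues. Nothing in the labels says how the libraries relate to litters or preparation days, and p-values measure only the spread between these libraries. Sensory neuron markers were present in the controls (mean log2(CPM + 1) over 13 markers, 6.48 to 8.21) but nearly missing from fast-growing PN 1191 (1.52). The controls also carried brown fat and skeletal muscle transcripts, whose levels are given further on.

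Transcripts of all 5 complexes were lower in PNs than in control DRGs with nerves, and no member was called higher in any of the 3 comparisons. In slow-growing PNs, 73 of the 79 members tested were called lower than in controls, against 7.13% of all genes tested. In fast-growing PNs, 76 of the 79 were called lower, against 16.7% of all genes. The median log2 fold change of the members was −1.68 in slow-growing and −2.21 in fast-growing PNs, while that of all genes tested was 0.04 and 0.02. Both comparisons use the same 3 controls, which were also the 3 libraries with the highest brown fat and skeletal muscle scores. With the brown fat score as a covariate, chosen after seeing the data, 0 members were called in either comparison, where 0.0127% and 0% of all genes were called lower, and the medians of the members were −1.42 and −1.71. Of the 82 members, 3 could not be tested in any comparison: *Ndufs5* had 0 counts in all 14 libraries, *Cox7b2* had at most 3 counts in a library, and *Cox8c* had 1. Every other member of complex I had at least 3615 counts over the 14 libraries. Whether *Ndufs5* was not expressed or was missed in counting was not tested.

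The separation could be seen library by library. Summed over all members, the controls held 18684, 18346, and 22339 CPM (DRG3, DRG4, and DRG5). The slow-growing PNs held 6238 CPM (1079), 8199 CPM (1198A), 9760 CPM (1202), 8679 CPM (1203), and 7148 CPM (1206). The fast-growing PNs held from 3190 to 7260 CPM, with a median of 5208 CPM. Every PN was thus below every control, whereas the fast- and slow-growing groups overlapped. For single members, every slow-growing PN was below every control for 75 of the 79 members, against 12.0% of all genes, and every fast-growing PN for 77 of the 79, against 14.9% of all genes. The highest level of a member was in control DRG5 for 71 of the 79 members and the lowest in fast-growing PN 1191 for 73. Without DRG5, 64 members were called lower in slow-growing and 74 in fast-growing PNs, against 2.43% and 10.2% of all genes, and without 1191 the count for fast-growing PNs was 76, against 17.4%. In bulk tissue, fewer cells of a type and less RNA per cell cannot be told apart.

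Relative to controls, complex III had the lowest summed level in PNs and complex V the highest. As a percentage of the control mean, complex III stood at 25.5% ± 5.60 (SD, n = 5) in slow-growing and 16.4% ± 4.07 (SD, n = 6) in fast-growing PNs. Complex IV stood at 28.3% ± 7.29 and 18.3% ± 4.96, complex I at 34.9% ± 6.38 and 23.2% ± 5.63, and complex II at 39.7% ± 8.92 and 25.3% ± 4.66, each in slow- and then fast-growing PNs. Complex V stood at 55.2% ± 8.32 and 36.0% ± 10.4. Without *Atp5b*, complex V stood at 37.3% ± 7.26 and 26.6% ± 6.51, close to complexes I and II, so that it was below complex II in slow-growing PNs and still the highest in fast-growing PNs. The SD of the controls themselves was between 7.79% and 13.4% of their mean for the 5 complexes. These orders are a description and were not tested.

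**Figure D1:**
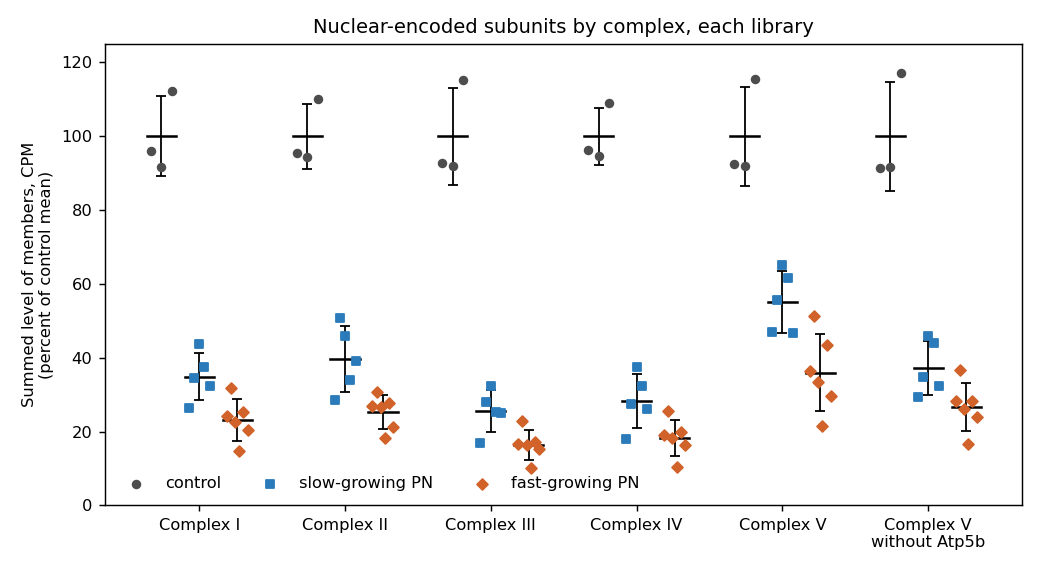
Summed TMM-scaled CPM of the members of each complex in each library, as a percentage of the mean of the 3 controls (y axis), with points for libraries and bars for group means ± SD. All 11 PNs lie below all 3 controls in every complex, and complex V lies highest in PNs (55.2% in slow-growing and 36.0% in fast-growing PNs).

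Complex I oxidizes NADH. Every one of its 34 members that could be tested was called lower in slow-growing PNs, against 7.13% of all genes. The same held in fast-growing PNs, against 16.7% of all genes. The 7 core subunits, which hold the flavin and the iron-sulfur clusters, had a median log2 fold change of −1.48 in slow-growing and −2.08 in fast-growing PNs. The 27 accessory subunits had medians of −1.69 and −2.21. The single members of the complex lay between −2.34 and −0.89 in slow-growing and between −3.07 and −1.54 in fast-growing PNs. The largest fall was that of *Ndufa1* (chromosome X, 37187588 to 37191163, minus strand, mm10), a small membrane subunit needed for assembly of the complex. Its level was 145, 156, and 183 CPM in the controls. It was 15.4, 32.8, 47.8, 34.8, and 35.1 CPM in the slow-growing PNs (in the order 1079, 1198A, 1202, 1203, 1206, the order used throughout) and 13.7 to 27.1 CPM with a median of 19.9 CPM in the fast-growing PNs. The control levels were all above 100 CPM and no PN reached 50 CPM. The log2 fold change of *Ndufa1* was −2.34 ± 0.30 (SE, adjusted p = 0.003041) in slow-growing and −3.07 ± 0.19 (adjusted p = 1.474e-05) in fast-growing PNs.

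Among the core subunits, *Ndufv1* binds the flavin that accepts electrons from NADH. It stood at 199.6, 194, and 252 CPM in controls, at 46.5, 72.9, 77.5, 69.2, and 55.1 CPM in slow-growing PNs, and at 25.02 to 64.97 CPM (median 43.6) in fast-growing PNs. Its log2 fold changes were −1.80 ± 0.20 (adjusted p = 0.002079) and −2.37 ± 0.24 (adjusted p = 0.0001298). *Ndufs1*, the largest subunit, which carries several of the iron-sulfur clusters, changed least of the complex. It stood at 177, 179, and 219.7 CPM in controls, at 103, 102, 124, 129, and 81.7 CPM in slow-growing PNs, and at 55.3 to 95.8 CPM (median 63.2) in fast-growing PNs. Its groups did not overlap with the controls either, and its log2 fold changes were −0.89 ± 0.18 (adjusted p = 0.01809) and −1.54 ± 0.18 (adjusted p = 0.0002868). With the brown fat and skeletal muscle scores as covariates, the value of *Ndufs1* in fast-growing PNs turned to 0.0070 (adjusted p = 0.9968).

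Complex II, the succinate dehydrogenase that also serves the tricarboxylic acid cycle, has 4 subunits, all nuclear. All 4 were called lower in slow- and fast-growing PNs, against 7.13% and 16.7% of all genes. *Sdhb*, the iron-sulfur subunit (chromosome 4, 140961203 to 140979193, plus strand), fell most. It stood at 203, 182, and 262 CPM in controls, at 40.1, 57.7, 68.5, 59.2, and 48.6 CPM in slow-growing PNs, and at 20.9 to 50.6 CPM (median 36.6) in fast-growing PNs. The log2 fold changes of *Sdhb* were −2.04 ± 0.20 (adjusted p = 0.001482) and −2.65 ± 0.23 (adjusted p = 5.653e-05). *Sdha*, the flavoprotein that oxidizes succinate, stood at 817, 770.1, and 872 CPM in controls, at 257, 464, 398, 268, and 355 CPM in slow-growing PNs, and at 149 to 251 CPM (median 227) in fast-growing PNs. All 3 groups of *Sdha* were apart from one another. Its log2 fold changes were −1.29 ± 0.24 and −2.05 ± 0.18, and those of the membrane anchors were −1.44 ± 0.22 and −1.81 ± 0.16 for *Sdhc* and −1.28 ± 0.23 and −1.91 ± 0.17 for *Sdhd*.

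Complex III passes electrons from ubiquinol to cytochrome c. All 8 members were called lower in slow- and fast-growing PNs, against 7.13% and 16.7% of all genes. *Uqcr11*, the smallest subunit (chromosome 10, 80402997 to 80406830, minus strand), fell most in both. It stood at 312, 282, and 376 CPM in controls, at 31.0, 54.5, 71.9, 58.8, and 72.9 CPM in slow-growing PNs, and at 16.9 to 50.6 CPM (median 40.4) in fast-growing PNs. The log2 fold changes were −2.54 ± 0.27 (adjusted p = 0.00196) and −3.18 ± 0.27 (adjusted p = 5.521e-05). Next came *Uqcrq* and *Uqcr10*, also small membrane subunits, at −2.51 ± 0.33 and −3.13 ± 0.27 and at −2.47 ± 0.27 and −3.16 ± 0.20, named after their values were seen. The Rieske iron-sulfur protein *Uqcrfs1* changed by −1.66 ± 0.25 and −2.46 ± 0.21 (log2), and the core protein *Uqcrc1* by −1.80 ± 0.21 and −2.46 ± 0.27. The other core protein, *Uqcrc2*, had the smallest change of the complex, at −1.43 ± 0.19 and −2.18 ± 0.16.

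Complex IV, cytochrome c oxidase, was called lower for 13 of 16 members tested in slow-growing PNs, against 7.13% of all genes. In fast-growing PNs 14 of 16 were, against 16.7%. Those without a call were subunit isoforms of restricted expression, described next to their partners. Of the subunits used in most tissues, *Cox7c* (chromosome 13, 86044816 to 86046904, minus strand), a small membrane subunit, fell most. It stood at 205, 192, and 220.0 CPM in controls, at 22.3, 34.6, 49.3, 34.9, and 38.7 CPM in slow-growing PNs, and at 15.04 to 30.03 CPM (median 21.7) in fast-growing PNs. The log2 fold changes of *Cox7c* were −2.57 ± 0.23 (adjusted p = 0.0009963) and −3.31 ± 0.17 (adjusted p = 9.796e-06). *Cox4i1*, the largest nuclear subunit, changed by −1.92 ± 0.23 and −2.54 ± 0.22 (log2), and *Cox5a*, a subunit on the matrix side, by −2.18 ± 0.21 and −2.99 ± 0.28. *Ndufa4*, a subunit found to belong to this complex rather than to complex I, changed by −1.50 ± 0.28 and −2.35 ± 0.34. *Cox7a2l*, a factor that joins complexes III and IV, changed least of the called members of complex IV, from 181 to 211 CPM in controls to 84.7 to 117 CPM in slow-growing and 76.7 to 106 CPM in fast-growing PNs (−1.04 ± 0.16 and −1.22 ± 0.13).

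**Figure D2:**
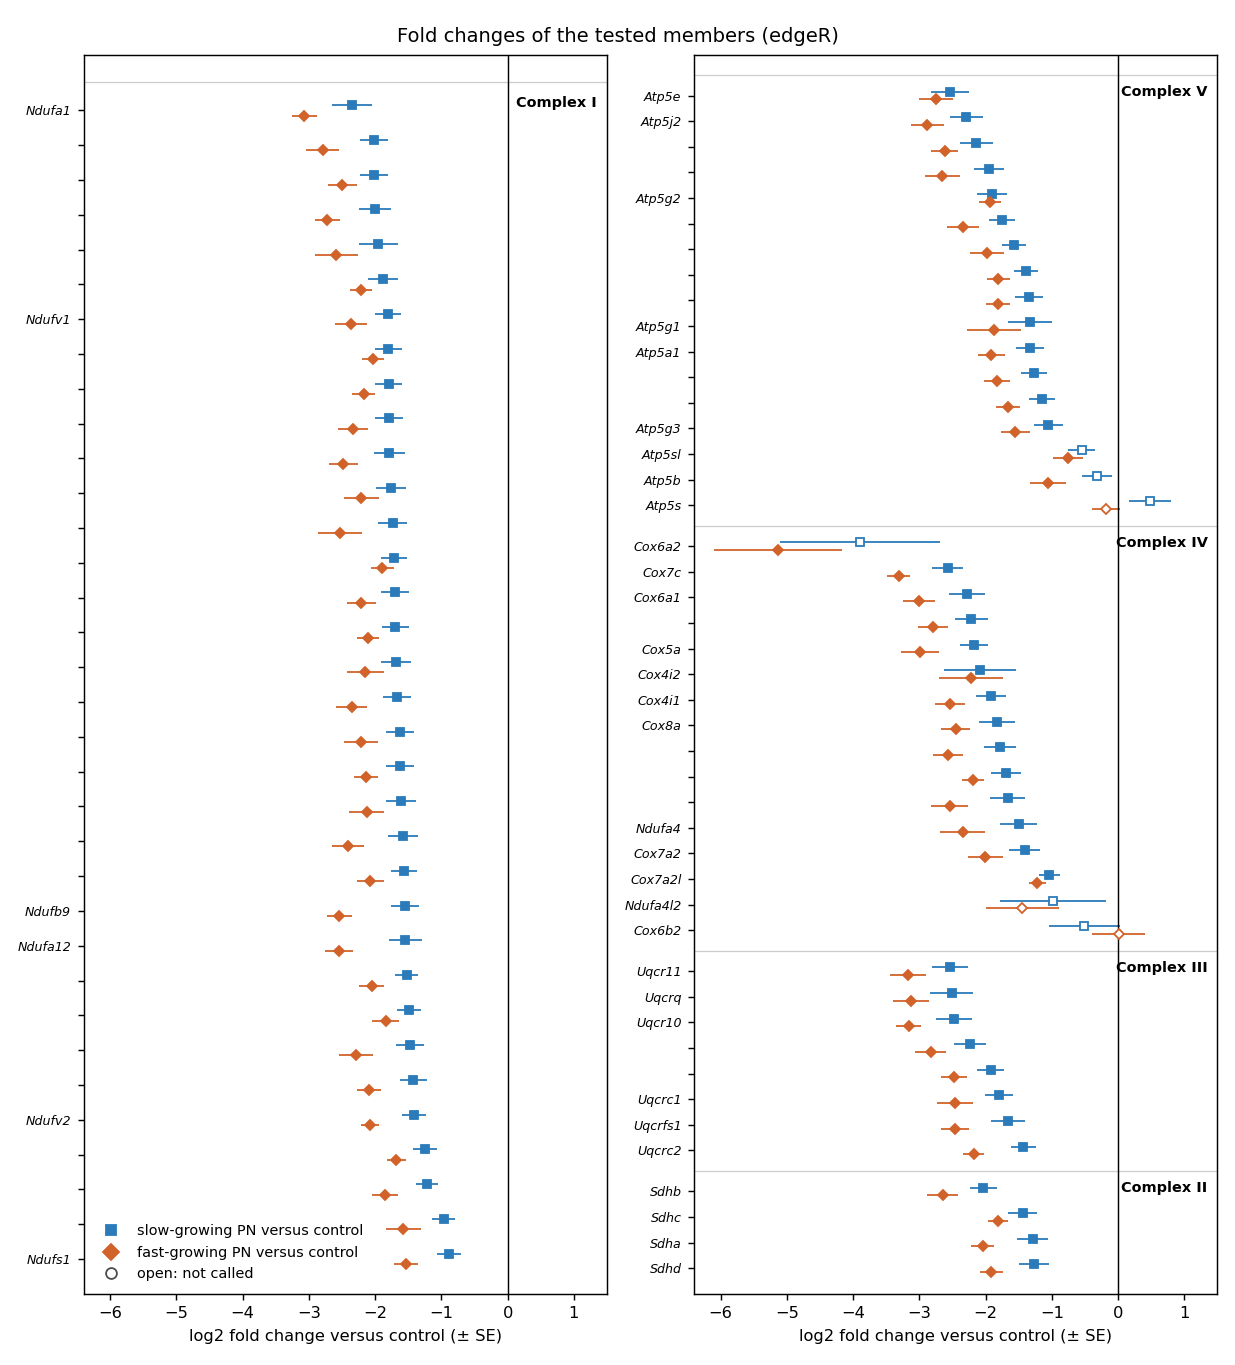
Log2 fold change (x axis, with the standard error as a bar) of each tested member in slow-growing and fast-growing PNs versus the same 3 controls, grouped by complex, with labels on the members that the text names. Nearly all members lie left of 0, from −5.14 (*Cox6a2*, fast-growing PNs) to 0.48 (*Atp5s*, slow-growing PNs), and *Atp5b* lies nearer 0 than the other subunits of complex V.

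Complex V was called lower for 14 of 17 members in slow-growing PNs, against 7.13% of all genes. In fast-growing PNs 16 of 17 were, against 16.7%. These 17 include *Atp5s* and *Atp5sl*, which were placed here by symbol alone. The largest falls were those of *Atp5e*, the epsilon subunit of the central stalk (chromosome 2, 174461072 to 174464105, minus strand), in slow-growing PNs and of *Atp5j2*, a membrane subunit (chromosome 5, 145183698 to 145192062, minus strand), in fast-growing PNs. *Atp5e* stood at 163, 169, and 233 CPM in controls, at 18.7, 35.1, 45.0, 28.4, and 41.4 CPM in slow-growing PNs, and at 16.7 to 40.6 CPM (median 30.6) in fast-growing PNs. Both PN groups of *Atp5e* were far below the controls and overlapped with each other, with log2 fold changes of −2.54 ± 0.28 (adjusted p = 0.002224) and −2.74 ± 0.26 (adjusted p = 8.238e-05). *Atp5j2* stood at 108, 116, and 144 CPM in controls, at 15.6, 23.2, 35.03, 32.2, and 24.9 CPM in slow-growing PNs, and at 9.75 to 26.3 CPM (median 16.7) in fast-growing PNs, and changed by −2.29 ± 0.25 (adjusted p = 0.002079) and −2.88 ± 0.25 (adjusted p = 5.406e-05).

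*Atp5b*, the catalytic beta subunit (chromosome 10, 128083273 to 128090391, plus strand), departed from this pattern. It stood at 2669, 2623, and 3196 CPM in controls, at 2128, 2504, 2704, 2530, and 1957 CPM in slow-growing PNs, and at 834 to 2107 CPM (median 1343) in fast-growing PNs. The slow-growing PNs overlapped with the controls, and the fast-growing PNs were all below them. Its log2 fold change was −0.32 ± 0.23 (adjusted p = 0.3554, 95% interval −0.84 to 0.20) in slow-growing and −1.06 ± 0.27 (adjusted p = 0.01511) in fast-growing PNs. The alpha subunit *Atp5a1*, its partner in the catalytic ring, changed by −1.33 ± 0.21 (adjusted p = 0.006666) and −1.91 ± 0.20 (adjusted p = 0.0001503). *Atp5b* made up 37.8% to 39.4% of the summed CPM of complex V in controls, 56.2% to 61.8% in slow-growing PNs, and 50.1% to 59.9% in fast-growing PNs. The direction of *Atp5b* turned with other fits. In slow-growing PNs it was 0.070 after removal of a per-library trend with GC content and transcript length and 0.089 with both marker scores as covariates. In fast-growing PNs it was 0.53 with the brown fat score and 0.77 with both scores, and the call was lost there, with the muscle score (−0.35), without the GC and length trend (−0.68), and without DRG5 (−0.90).

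The 3 genes for subunit c, the proton-carrying ring, encode the same mature protein. All 3 were called lower in slow- and fast-growing PNs, against 7.13% and 16.7% of all genes. *Atp5g1* stood at 264 to 442 CPM in controls, 79.5 to 209 CPM in slow-growing, and 29.3 to 162 CPM in fast-growing PNs (−1.33 ± 0.33 and −1.87 ± 0.40). With both marker scores as covariates, its value in fast-growing PNs turned to 0.22 (adjusted p = 0.9686). *Atp5g2* stood at 149 to 204 CPM, 30.8 to 59.7 CPM, and 37.3 to 54.8 CPM (−1.90 ± 0.22 and −1.94 ± 0.16). *Atp5g3* stood at 193 to 258 CPM, 81.3 to 145 CPM, and 55.8 to 130.3 CPM (−1.06 ± 0.22 and −1.55 ± 0.22). Unlike most members, *Atp5g2* had almost the same level in the 2 PN groups, with a log2 difference of −0.02 ± 0.18 (95% interval −0.40 to 0.37). The factors *Atp5s* and *Atp5sl* (annotated as *Dmac2*), chosen for mention after their values were seen, departed from the other members. They were counted with complex V by symbol and are not subunits of the ATP synthase. Their levels were between 5.67 and 27.4 CPM in all 14 libraries. *Atp5s* had log2 fold changes of 0.48 ± 0.31 (adjusted p = 0.3133) and −0.18 ± 0.22 (adjusted p = 0.5667). *Atp5sl* had −0.55 ± 0.21 (adjusted p = 0.118) and −0.76 ± 0.23 (adjusted p = 0.03048), so that it was called in fast-growing PNs.

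Several complex IV subunits exist as a form used in most tissues and a form of heart, skeletal muscle, or brown fat. Per kilobase of longest transcript, the muscle form *Cox6a2* made up 3.90%, 8.50%, and 20.6% of the *Cox6a1* and *Cox6a2* pair in the controls. Its share was 10.1%, 0.0969%, 7.80%, 2.52%, and 0.107% in the slow-growing PNs and 0.513% to 7.67% in the fast-growing PNs, so that the groups overlapped. In CPM, *Cox6a2* (chromosome 7, 128205435 to 128206387, minus strand) stood at 33.6, 68.8, and 185 in controls, at 10.02, 0.150, 19.0, 4.395, and 0.193 in slow-growing PNs, and at 0.512 to 11.9 (median 1.29) in fast-growing PNs. Both PN groups were below the controls, with log2 fold changes of −3.89 ± 1.20 (adjusted p = 0.07238) and −5.14 ± 0.96 (adjusted p = 0.003344), the latter being the largest fall of any member. With the brown fat score as a covariate the latter turned to 0.35 (adjusted p = 0.9867), and with the muscle score or both scores it was −1.27 and −2.55, with no call. The levels of 0.150 and 0.193 CPM rest on fewer than 3 counts. The common form *Cox6a1* changed by −2.28 ± 0.27 (adjusted p = 0.00231) and −3.01 ± 0.24 (adjusted p = 4.436e-05).

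*Cox7a1* and *Cox8b*, the muscle and brown fat forms that the list leaves out, were lower in both PN groups too. On the same scale per kilobase, *Cox7a1* made up 41.6% to 52.9% of its pair with *Cox7a2* in controls, 1.60% to 23.7% in slow-growing PNs, and 3.59% to 8.33% in fast-growing PNs. *Cox8b* made up 42.7% to 58.4% of its pair with *Cox8a* in controls, 3.47% to 29.3% in slow-growing PNs, and 0.195% to 9.36% in fast-growing PNs. In both pairs the controls were apart from all PNs. *Cox7a1* changed by −3.99 ± 0.71 (adjusted p = 0.01035) and −6.01 ± 0.32 (adjusted p = 9.903e-06), and *Cox8b* by −3.72 ± 0.77 (adjusted p = 0.01889) and −6.83 ± 0.81 (adjusted p = 0.0002814). Their common partners fell as well, *Cox7a2* by −1.41 ± 0.23 and −2.01 ± 0.26 and *Cox8a* by −1.83 ± 0.27 and −2.45 ± 0.22, each with an adjusted p of at most 0.007474. The common forms were thus lower as well as the muscle and fat forms.

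**Figure D3:**
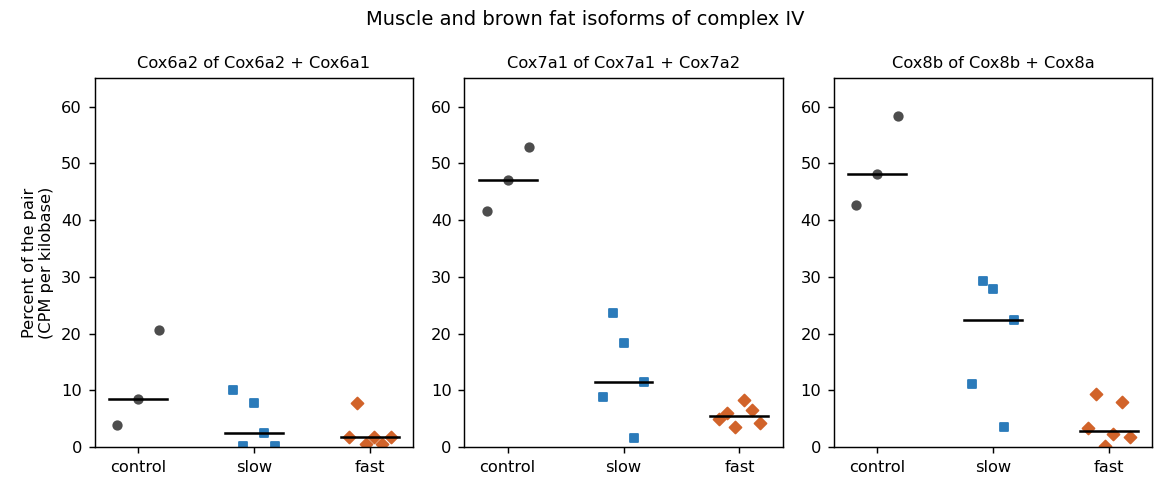
Share of the tissue-restricted isoform in each complex IV isoform pair (y axis, % of the pair's CPM per kilobase of longest transcript) in each library, by group. *Cox7a1* and *Cox8b* make up from 41.6% to 58.4% of their pairs in the 3 controls and at most 29.3% in any PN, while the groups overlap for *Cox6a2*.

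The remaining isoforms had low levels. *Cox4i2*, the lung form of subunit 4, stood at 1.56 to 3.67 CPM in controls, 0.380 to 1.54 CPM in slow-growing PNs, and 0.293 to 1.17 CPM in fast-growing PNs, and was called lower in both (−2.08 ± 0.54, adjusted p = 0.04257, and −2.22 ± 0.48, adjusted p = 0.006782). *Ndufa4l2*, a relative of *Ndufa4* induced in low oxygen, stood at 1.71 to 1.83 CPM, 0.0916 to 2.80 CPM, and 0.205 to 1.24 CPM and was not called (−0.98 ± 0.80 and −1.45 ± 0.55, adjusted p = 0.4194 and 0.0724). *Cox6b2*, the testis form of subunit 6b, named after its values were seen, stood at 2.71 to 2.93 CPM, 0.733 to 4.28 CPM, and 1.71 to 5.85 CPM. Its log2 fold changes were −0.51 ± 0.54 and 0.01 ± 0.40. It was not called in either comparison. With both marker scores as covariates, its direction turned, to 0.64 in slow-growing and −2.78 in fast-growing PNs, also without a call.

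The fast- and slow-growing PNs, compared directly, differed less than either did from controls. Of 78 members tested, 77 had a lower estimate in fast-growing PNs, with a median log2 fold change of −0.57, against −0.03 for all genes tested. Only *Ndufb9* and *Uqcrc2* were called lower, against 0.466% of all genes, and 53 members had an unadjusted p under 0.05, against 20.4% of all genes. Every fast-growing PN was below every slow-growing PN for 5 members, *Ndufa12*, *Ndufb9*, *Ndufv2*, *Sdha*, and *Uqcrc2*, against 0.905% of all genes. The medians by complex were −0.56 for complex I, −0.61 for complex II, −0.63 for complex III, −0.61 for complex IV, and −0.50 for complex V. Marker lists of other cells had the medians that follow in the same comparison, with few or no markers called. The 9 general fat markers tested had a median of −4.10 (9 with an unadjusted p under 0.05, 1 called), the 6 macrophage markers 1.69 (6, 0 called), and the 7 fibroblast markers 1.11 (6, 0 called). The 9 brown fat markers tested had a median of −0.75 (4, 0 called), the 15 skeletal muscle markers −1.66 with all 15 below 0 (1, 0 called), and the 13 sensory neuron markers −0.62 with all 13 below 0 (0, 0 called). The 10 Schwann cell markers had a median of −0.12 (6, 0 called). The part of these lists in the result was not tested.

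*Ndufb9*, an accessory subunit of the membrane arm of complex I (chromosome 15, 58933756 to 58939488, plus strand), stood at 74.9, 113, 147, 100.2, and 111 CPM in slow-growing PNs. In fast-growing PNs it stood at 40.8 to 74.9 CPM with a median of 54.8 CPM, and in controls at 309.6, 269, and 344 CPM. The highest fast-growing PN and the lowest slow-growing PN lay side by side, at 74.9 CPM each after rounding. The log2 fold change was −0.97 ± 0.20 (adjusted p = 0.0449). *Uqcrc2* (chromosome 7, 120635176 to 120659524, plus strand) stood at 85.4, 127, 114, 93.5, and 89.8 CPM in slow-growing PNs, at 47.8 to 76.4 CPM (median 58.3) in fast-growing PNs, and at 232, 254, and 307 CPM in controls. Its 3 groups were apart, and it changed by −0.73 ± 0.15 (adjusted p = 0.04842) between the PN groups. *Ndufv2*, a core iron-sulfur subunit of complex I and the member with the next lowest p, stood at 49.5 to 80.1 CPM and 33.5 to 48.2 CPM and missed the threshold (−0.65 ± 0.14, adjusted p = 0.05063). *Ndufa12*, an accessory subunit of complex I named after its values were seen, stood at 25.6, 45.6, 54.5, 30.9, and 29.9 CPM in slow-growing and 11.4 to 24.6 CPM (median 18.4) in fast-growing PNs. Although its groups were apart and its estimate was the largest of the complex, it was not called (−0.99 ± 0.24, adjusted p = 0.05716). Both calls depend on single libraries: no member was called without slow-growing PN 1079, 1202, or 1206, or without fast-growing PN 1053, 1179, 1191, 1214, or 1216, where 0% of all genes were called lower too (0.104% without 1214). In turn, 4 were called without 1198A (1.95% of all genes), 5 without 1203 (2.27%), and 5 without 1071 (0.739%). The calls were also lost with the brown fat score or both scores as covariates (0% of all genes) and without a filter on low counts (0.243%). With upper quartile factors (0.188%) or the muscle score (0.446%), 1 member was called. DESeq2's Wald test called 25 members lower, against 4.66% of all genes, and limma-voom 0, against 0.0453%, with 53 members and 20.3% of all genes at an unadjusted p under 0.05.

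Brown fat, general fat, and skeletal muscle scores were lower in every PN than in every control. Few of their single markers were called in slow-growing PNs. The score of a marker list is its mean log2(CPM + 1). Of all genes tested, 7.13% were called lower in slow-growing and 16.7% in fast-growing PNs. Called higher were 648 of 15714 and 2371 of 16037 genes. An unadjusted p under 0.05 was found for 30.3% and 41.8% of all genes. The brown fat score was 5.49, 5.42, and 5.98 in controls, 2.19, 4.58, 4.23, 1.92, and 3.91 in slow-growing PNs, and 1.95 to 3.40 in fast-growing PNs. *Ucp1*, the uncoupling protein that defines brown fat, stood at 828.9, 809, and 1272 CPM in controls, at 1.75, 284, 162, 1.74, and 58.9 CPM in slow-growing PNs, and at 0.0558 to 78.7 CPM in fast-growing PNs. Every control was above every PN for both. Of the 12 brown fat markers, 3 were called lower in slow-growing and 11 in fast-growing PNs (9 and 12 had an unadjusted p under 0.05). At least 1 library had 0 counts for 5 of these markers. The score of 10 general fat markers was 7.59 to 7.85, 1.63 to 7.58, and 1.41 to 4.22 in the 3 groups, with 0 called lower in slow-growing (0 also had an unadjusted p under 0.05) and 10 in fast-growing PNs. That of 15 skeletal muscle markers was 8.10 to 10.02, 1.57 to 7.96, and 2.76 to 7.35, with 0 called lower in slow-growing (4 had an unadjusted p under 0.05) and 13 in fast-growing PNs. In the other direction, 5 of 10 Schwann cell markers and 6 of 7 fibroblast markers were called higher in fast-growing PNs, and 2 and 0 (0 at an unadjusted p under 0.05) in slow-growing PNs. Of 13 sensory neuron markers, 0 were called in either comparison (2 and 0 at an unadjusted p under 0.05), with medians of 0.996 in slow-growing, where all 13 were above 0, and 0.40 in fast-growing PNs. Of 6 macrophage markers, 0 were called (1 and 0), with medians of −1.57, all 6 below 0, and 0.22. Of 5 endothelial markers, 1 and 2 were called lower, and of 5 pericyte markers 2 and 2, with 1 called higher in fast-growing PNs.

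In slow-growing PNs 1079, 1198A, 1202, 1203, and 1206, brown fat scores were 2.19, 4.58, 4.23, 1.92, and 3.91. The mean log2(CPM + 1) of the members was 5.07, 5.48, 5.85, 5.59, and 5.42 in the same order. The brown fat score separates controls from PNs as the groups do, and with that score alone as a covariate, 2 of 15714 genes were called lower in slow-growing and 0 of 16037 in fast-growing PNs. None of these was a member, and 72 and 31 members had an unadjusted p under 0.05, against 13.8% and 8.17% of all genes. With the muscle score alone, also chosen after seeing the data, 44 members were called lower in slow-growing and 6 in fast-growing PNs, against 1.51% and 0.511% of all genes, with medians of −1.62 and −1.65. With both scores, 0 genes of any kind were called in any comparison, and 32 and 29 members had an unadjusted p under 0.05, as 471 and 1133 of all genes did. The members' median log2 fold change was then −1.09 in slow-growing and −1.49 in fast-growing PNs. With 3 controls, the difference in tissue content and the difference between control and PN cannot be told apart.

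**Figure D4:**
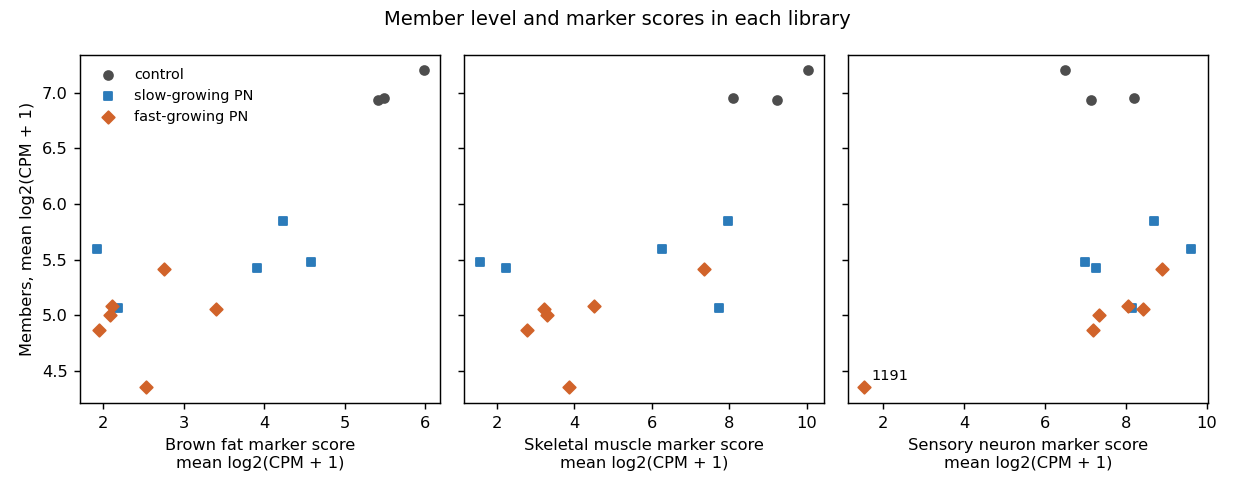
Mean log2(CPM + 1) of the members (y axis) against the brown fat and the skeletal muscle marker score (x axes, mean log2(CPM + 1)) of each library, colored by group. The 3 controls lie above 6.9 for the members and above 5.4 for brown fat, apart from all PNs.

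Member transcripts are short, and short transcripts as a class were lower in PNs. The median longest transcript was 1003 bases for members and 2728 bases for all annotated genes, and 40 members were under 1000 bases. Among other genes above a log2 CPM of 3, the share called lower in slow-growing PNs was 56.8% for transcripts up to 700 bases and fell over 6 classes of length to 2.64% above 4000 bases. In fast-growing PNs it fell from 62.6% to 9.12%. The medians of the members lay below those of other genes in each of the 6 classes, of which the longest held 4 members and the next 7. Those 4 were *Atp5l* (6310 bases), *Atp5g1* (4715), *Ndufb7* (4435), and *Ndufb2* (4371). The longest annotated transcript need not be the form expressed, so members in the long classes may have shorter transcripts than their class says. In slow-growing PNs, their medians ran from −2.09 in the shortest class to −1.33 in the class up to 4000 bases and −1.87 above, where those of other genes ran from −1.28 to 0.04 and 0.24. In fast-growing PNs, they ran from −2.72 to −1.91 and −2.38, where those of other genes ran from −1.13 to 0.03 and 0.21. After removal of a per-library trend with GC content and length, 60 of the 79 members were called lower in slow-growing PNs, against 3.64% of all genes, and 73 in fast-growing PNs, against 12.7%. The members' medians were then −1.05 and −1.69. This fit used the same longest-transcript lengths, and the part of the length trend in the result was not tested beyond it.

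The cytosolic ribosomal proteins are short transcripts of another function. In slow-growing PNs 68 of 79 were called lower, against 7.13% of all genes, with a median log2 fold change of −1.37. In fast-growing PNs 66 of 81 were, against 16.7% of all genes, with a median of −0.99. Between the PN groups their median was 0.35, higher in fast-growing PNs, whereas that of the members was −0.57. There, 0 of 78 ribosomal protein genes were called, and 42 had an unadjusted p under 0.05, against 20.4% of all genes.

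Other genes of the pathway were taken from lists fixed by name. For comparison with their counts, 7.13% of all genes were called lower in slow-growing and 16.7% in fast-growing PNs. Of 8 subunits and relatives that the name rule misses, 7 were called lower in both PN groups, among them *Cyc1* and *Cycs*, which encode the cytochromes c1 and c. *Cyc1* stood at 222, 228, and 273 CPM in controls, at 73.1, 85.6, 111, 76.7, and 77.9 CPM in slow-growing PNs, and at 32.1 to 68.7 CPM (median 40.5) in fast-growing PNs. Its 3 groups were apart, and it was the only gene of the list called between the PN groups (−0.91 ± 0.19, adjusted p = 0.04842). That call was lost with the brown fat score as a covariate and without 1079, 1202, 1206, 1053, 1179, 1191, or 1216, where 0 of all genes were called lower. The inhibitor of the ATP synthase, *Atpif1*, was the gene without a call. Of 39 assembly factors tested, which help to build the complexes but are not part of them, 14 were lower in slow-growing and 23 in fast-growing PNs, with medians of −0.52 and −0.81. The copper chaperone *Cox17* changed by −1.91 ± 0.24 and −2.44 ± 0.19 (log2), whereas *Acad9*, a complex I assembly factor, was called higher in both groups (0.67 ± 0.13, adjusted p = 0.01483, and 0.56 ± 0.12, adjusted p = 0.001138). Of 11 genes of ubiquinone synthesis, 5 and 7 were lower, led by the kinase-like *Adck3* at −3.37 ± 0.33 and −4.71 ± 0.34.

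Mitochondrial ribosomal proteins, which translate the mitochondrially encoded subunits, were lower for 51 of 77 in slow-growing and 72 of 77 in fast-growing PNs, with medians of −0.89 and −1.08. Genes of transport across the mitochondrial membranes were lower for 13 of 29 and 23 of 28. For both lists, the shares of all genes called lower were 7.13% and 16.7%. No gene of these 2 lists was called between the PN groups. There, 13 of 77 and 3 of 28 had an unadjusted p under 0.05, against 20.4% of all genes. Of 14 regulators of mitochondrial genes, 8 were called lower in fast-growing PNs, where 16.7% of all genes were, and 1 in slow-growing PNs, where 7.13% were. The 1 called in both was the coactivator *Ppargc1b*, at 25.4, 23.9, and 32.2 CPM in controls, 4.78, 8.64, 6.84, 6.04, and 10.02 CPM in slow-growing PNs, and 1.88 to 3.75 CPM (median 2.88) in fast-growing PNs. Its 3 groups did not overlap, and it was lower in fast- than in slow-growing PNs as well (−1.31 ± 0.24, adjusted p = 0.0449), a call that was lost in the same fits as that of *Cyc1*. Its relative *Ppargc1a* stood at 66.3 to 134 CPM, 51.9 to 95.1 CPM, and 41.3 to 64.3 CPM, with log2 fold changes of −0.57 ± 0.26 (adjusted p = 0.1802) and −1.07 ± 0.21 (adjusted p = 0.004364). *Nrf1*, *Gabpa*, *Gabpb1*, and *Yy1*, which encode or form factors that bind promoters of many of these genes, were not called in either comparison. The genes named from these lists were chosen after their values were seen.

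Short motifs of such factors were searched in the promoters of members. RefSeq (GRCm38.p6) gave a window of 250 bases before to 50 bases after the start for 67 of the 82 members and for 27025 genes in all. Shares of all genes in this paragraph refer to these 27025, which were not limited to the genes tested above or matched for expression. The NRF1 motif GCGCANGCG, searched on both strands, was in 20 of the 67 (29.9%), against 7.03% of all genes. The ETS motif CCGGAAG, bound by the GABP factor, was in 16 (23.9%, against 9.93%), the YY1 motif AAGATGGC in 11 (16.4%, against 3.19%), and the ERR motif TCAAGGTCA in 2 (2.99%, against 0.466%). At least 1 of the 4 was in 39 members (58.2%, against 18.2%). By complex these were 18 of 31 in complex I, 3 of 3 in complex II, 3 of 5 in complex III, 3 of 12 in complex IV, and 12 of 16 in complex V. Bases 200 to 41 before the start are shown for the member with the largest fall in slow-growing PNs in complexes I, III, and V and for *Atp5b*, which changed least of the catalytic subunits, with any motif in capitals. The windows lie at chrX:37191279-37191438 (minus strand), chr10:80406862-80407021 (minus), chr2:174464142-174464301 (minus), and chr10:128083107-128083266 (plus).
Ndufa1: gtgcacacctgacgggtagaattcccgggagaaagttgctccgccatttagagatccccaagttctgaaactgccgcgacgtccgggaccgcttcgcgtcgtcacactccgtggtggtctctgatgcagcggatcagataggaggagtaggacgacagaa
Uqcr11: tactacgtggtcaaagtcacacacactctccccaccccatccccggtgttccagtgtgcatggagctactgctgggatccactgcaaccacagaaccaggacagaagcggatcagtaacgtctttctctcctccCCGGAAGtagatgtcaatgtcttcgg
Atp5e: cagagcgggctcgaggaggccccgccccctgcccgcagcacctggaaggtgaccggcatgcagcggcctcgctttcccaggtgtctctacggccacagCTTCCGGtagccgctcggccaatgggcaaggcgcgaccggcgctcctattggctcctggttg
Atp5b: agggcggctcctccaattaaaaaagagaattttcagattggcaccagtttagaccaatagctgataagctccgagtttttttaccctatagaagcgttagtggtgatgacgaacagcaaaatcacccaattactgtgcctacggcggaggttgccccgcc
In the windows shown, *Uqcr11* holds the ETS motif on the gene's own strand and *Atp5e* holds it on the other strand, while those of *Ndufa1* and *Atp5b* hold none of the 4. A match is only a run of letters, and these shares do not tell which promoters are bound.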

How the data were processed

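The authors amplified total RNA (Ovation RNA-Seq System v2), aligned reads to mm10 (TopHat2 2.0.9), and counted them per gene (featureCounts 1.5.2). The submitters' processing notes also name CASAVA 1.4, FastQC 0.11.0, and edgeR 3.16.5. The deposited counts are whole numbers without normalization, and 0 columns were left without a sample. A table of log2 values that the authors deposited was not used here. Whether counting used strand is not given in the sources used here. In GENCODE vM21, 22750 genes matched by symbol, 913 by another symbol, and 399 not at all; all 82 members matched, of which 26 share exon bases with a gene on the opposite strand and 5 with one on the same strand, so their counts may include reads of that gene.

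Counts were fitted in R 4.3.3 with edgeR 4.0.16 (TMM factors, filterByExpr, quasi-likelihood test, Benjamini-Hochberg adjustment over all genes), with only the libraries of the comparison and no covariate, since the labels give no batch. The members, the gene lists, and the marker lists were chosen with earlier results of these data known. Named by rule were 3 complex I core subunits, the complex II subunits, catalytic and isoform genes of the other complexes, the called member with the largest fall or rise of each complex in each comparison, and the 3 lowest p-values between PN groups; others were named after their values were seen. The result of 1 gene that the rule names is not reported here. Alternatives used DESeq2 1.42.0, limma 3.58.1, other scalings and filters, covariates, and each library left out in turn. The main edgeR fit and the fit without the length and GC trend were also run on simulated data, with no outcome given here. PCR reads are not independent molecules, so the floor of 3 counts covers counting error only. Figures were drawn with matplotlib 3.10.9.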

Additional observations from a re-analysis of the deposited data

Results flagged for a closer look

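A single library lay far from the others of its group in 5 of the 106 combinations of a group and a measure that were examined, and chance gives about 1 in 20. Among the slow-growing PNs, 1079 had the lowest *Cox8a* level, 42.8 CPM, where the next PN had 88.4 CPM. Slow-growing PN 1206 had the highest levels of *Cox4i2* (1.54 CPM, the next 0.613) and of *Ndufa4l2* (2.80 CPM, the next 0.817). Among the fast-growing PNs, 1071 had the highest *Cox6a2* level, 11.9 CPM, where the next had 2.01 CPM. Fast-growing PN 1191 had a sensory neuron score of 1.52, where the next had 7.17, and was also lowest in 73 of 79 members. In the direct test between the PN groups, 2 members differed, *Ndufb9* by −0.97 and *Uqcrc2* by −0.73 on the log2 scale.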

How the results depend on the processing

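Versus controls, 72 to 74 members were called lower in slow-growing (4.71% to 12.2% of all genes) and 76 to 77 in fast-growing PNs (12.5% to 18.9%) under DESeq2's factors, upper quartile factors, DESeq2's Wald test, limma-voom, no filter, all 14 libraries in one fit, and the count table without the ribosomal RNA gene Rn45s (chosen after seeing the data). With each library left out in turn, 64 to 72 members were called lower in slow-growing (2.43% to 9.57% of all genes) and 74 to 76 in fast-growing PNs (10.2% to 17.4%). Covariates changed the counts. The members lower in slow-growing PNs (73) came to 0 with brown fat and muscle scores, 0 with the brown fat score alone, and 44 with the muscle score alone (0%, 0.0127%, and 1.51% of all genes), and those lower in fast-growing PNs (76) to 0, 0, and 6 (0%, 0%, and 0.511%). The median in slow-growing PNs (−1.68) was −1.09 with both scores and −1.05 without the length and GC trend, and that in fast-growing PNs (−2.21) was −1.49, −1.69, −1.71 with the brown fat score, and −1.65 with the muscle score. Between the PN groups, the 2 members called lower became 1 with upper quartile factors (0.188% of all genes), 25 with DESeq2's Wald test (4.66%), 0 with limma-voom (0.0453%), 0 without a filter (0.243%), 4 in a fit of all libraries (1.25%), 0 with both scores (0%), 5 without the length and GC trend (0.882%), 0 with the brown fat (0%) and 1 with the muscle score alone (0.446%), and 0 to 5 with a library left out (0% to 2.27%). The covariates of 1 score were chosen after seeing the data, and the cause of these changes was not tested.

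Among the named members, directions turned for those that follow. Versus controls in slow-growing PNs, *Atp5b* was 0.089 with both scores and 0.070 without the length and GC trend, and with the brown fat score *Ndufa4l2* was 0.88 and *Atp5s* −0.16. *Cox6b2* was 0.64 with both scores, 0.48 without the length and GC trend, and 0.52 with the brown fat score in slow-growing PNs. In fast-growing PNs its 0.01 became −0.12 with limma-voom, −2.78 with both scores, −2.31 with the brown fat and −1.23 with the muscle score, −0.00057 without Rn45s, −0.025 without 1053, and −0.25 without 1216 (−0.25 to 0.13 over all libraries left out). In fast-growing PNs, both scores gave *Ndufs1* 0.0070, *Atp5b* 0.77, *Atp5g1* 0.22, and *Atp5s* 0.84, the brown fat score gave *Atp5b* 0.53, *Cox6a2* 0.35, and *Atp5s* 0.85, and the length and GC fit gave *Atp5s* 0.14. Between the PN groups, *Atp5g2* was 0.0010 with upper quartile factors, 0.0029 with limma-voom, 0.10 with both scores, 0.055 without the length and GC trend, 0.12 with the brown fat score, 0.069, 0.043, 0.031, and 0.056 without 1198A, 1202, 1191, and 1214, and −0.12 to 0.069 over all libraries left out in turn. *Cox6a2* was 0.53 with both scores and 0.60 with the muscle score, and *Ndufa4l2* was 0.058 with the brown fat score and −0.75 to 0.52 with a library left out, the last without 1206. Of all alternative values of named members, 537 of 646 (slow-growing versus control), 552 of 660 (fast-growing versus control), and 638 of 701 (between PN groups) kept direction and side of the threshold. Depth limits *Cox4i2*, *Cox6a2*, and *Ndufa4l2*, which lie near the floor of 3 counts in some libraries. No paired analysis was possible because the groups share no replicate numbers.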
